A study of Mus musculus with 16 samples.

Results

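The chemokine receptor gene *Cxcr3* and the 3 genes of its interferon-inducible ligands, *Cxcl9*, *Cxcl10* and *Cxcl11*, were followed in mouse hamstring muscle. They were chosen by gene symbol and are 4 of the 26382 genes in the deposited table, all of them above the filter on low values (a mean of at least 0.5 over all libraries), which *Cxcl11* and *Cxcr3* passed only through the HRS and HRS-MBP legs. Bulk poly(A) RNA was sequenced from 16 hamstring samples of female C57BL/6 mice aged 8 to 10 weeks, taken 14 days after intramuscular injection of recombinant histidyl-tRNA synthetase (HRS, the Jo-1 autoantigen) or phosphate-buffered saline (PBS). The HRS leg group holds the left hamstring of 5 mice (m862 to m866, HRS at 3 to 5 mg/mL), and the contralateral PBS leg group holds the right hamstring of the same 5 mice. The PBS-only group holds both hamstrings of 2 mice (m867 and m868) that received no HRS, so its 4 legs come from only 2 animals. The HRS-MBP group holds 2 mice (m860 and m861) whose sample titles name an MBP fusion protein at 2 to 3 mg/mL, while their treatment label reads HRS at 3 to 5 mg/mL, and no leg is given for them. The treatment text describes injection on both sides (50 µL each, 100 µL in all), whereas the titles place HRS in the left leg and PBS in the right leg. The titles were followed here. The model is an immunization with protein into muscle, and no genetic change is named for any group.

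CXCL9, CXCL10 and CXCL11 are secreted chemokines that attract cells bearing the receptor CXCR3, mainly activated and memory T cells, above all T helper type 1 and cytotoxic cells, and natural killer (NK) cells. Interferon-γ induces the ligand genes in macrophages, dendritic cells, endothelium, fibroblasts and muscle cells, with interferon regulatory factors (IRFs) acting on them, often together with NF-κB. In inflammatory myopathies these chemokines are known as a route by which T cells enter muscle, since the ligands are made in the tissue and the receptor is carried by the incoming cells.

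The 3 ligand genes stand side by side on the minus strand of chromosome 5 (GENCODE M21, GRCm38), *Cxcl9* at chr5:92321347-92328079 (ENSMUSG00000029417.9), *Cxcl10* at chr5:92346638-92348889 (ENSMUSG00000034855.13) and *Cxcl11* at chr5:92359544-92365485 (ENSMUSG00000060183.6). Together they span 44.1 kb, with gaps of 18.6 kb between *Cxcl9* and *Cxcl10* and 10.7 kb between *Cxcl10* and *Cxcl11*. *Cxcr3* lies apart, at chrX:101731535-101734269 on the minus strand (ENSMUSG00000050232.6). *Cxcl11* differs from the other members in its annotation. In C57BL/6 mice the gene carries a frameshift, and GENCODE lists it as a polymorphic pseudogene, so that a transcript can be measured without a full-length chemokine being made. A processed pseudogene on the opposite strand, *Gm2673*, shares 1582 exonic bases with *Cxcl11* (chr5:92363904-92365485). *Cxcl10* and *Cxcl11* also lie inside *Art3*, a muscle-expressed gene on the opposite strand, and a processed transcript of *Art3* shares 133 exonic bases with *Cxcl10* (chr5:92346638-92346770) and 0 with *Cxcl11*.

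The sequences upstream of the gene starts are shown because *Cxcl9*, *Cxcl10* and *Cxcr3* rose together in each comparison of HRS-injected muscle with PBS. They were taken from RefSeq (GRCm38.p6) on the minus strand, at chr5:92328080-92328329 for *Cxcl9*, chr5:92348890-92349139 for *Cxcl10* and chrX:101734270-101734397 for *Cxcr3*, and are written 5′ to 3′ so that the last base adjoins the gene start. For *Cxcr3* 128 bases are given, because the other 122 lie inside the GENCODE gene. Capitals mark matches to GAAANNGAA, a core of the interferon-stimulated response element bound by IRFs, and to GGGANTTCC, a form of the NF-κB site.
Cxcl9: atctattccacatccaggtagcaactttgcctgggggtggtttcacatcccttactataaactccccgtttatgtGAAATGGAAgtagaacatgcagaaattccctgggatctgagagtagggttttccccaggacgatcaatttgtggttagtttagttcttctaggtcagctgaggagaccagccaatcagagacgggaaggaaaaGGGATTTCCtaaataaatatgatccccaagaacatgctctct
Cxcl10: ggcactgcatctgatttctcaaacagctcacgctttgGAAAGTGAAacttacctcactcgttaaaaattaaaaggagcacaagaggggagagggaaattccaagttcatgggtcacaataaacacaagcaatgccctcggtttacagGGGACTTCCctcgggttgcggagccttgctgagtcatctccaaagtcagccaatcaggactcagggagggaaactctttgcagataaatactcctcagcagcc
Cxcr3: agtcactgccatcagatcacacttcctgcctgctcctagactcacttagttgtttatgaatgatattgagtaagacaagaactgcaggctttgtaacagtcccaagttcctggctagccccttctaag
Both strands were searched, and these forms of the motifs were chosen with the sequences in view. *Cxcl9* held GAAATGGAA at 175 to 167 bases before the start and GGGATTTCC at 42 to 34 bases. *Cxcl10* held GAAAGTGAA at 213 to 205 bases before the start and GGGACTTCC at 103 to 95 bases. Among 32851 promoters of the same table, 7.13% held GAAANNGAA and 1.43% held GGGANTTCC. The letters TTCNNNGAA, a form of the interferon-γ activated site present in 7.02% of promoters, were searched as well and found in none of the 3 windows. None of the motifs was found in the shorter *Cxcr3* window. A match is a description of these letters and not evidence of binding.

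*Cxcl9* was low in every PBS leg and far higher in every HRS leg. Its level is given in normalized counts, the read counts per gene as scaled by the authors, on which 1 read was worth 0.0108 to 0.121 in libraries with an implied depth of 8.6 to 73.9 M reads. In the HRS leg it was at 240 (m862), 101 (m863), 734 (m864), 80.2 (m865) and 204 (m866) normalized counts. In the contralateral PBS leg it was at 2.98, 1.70, 11.9, 2.85 and 9.02 in the same order of mice. In PBS-only mice it was at 3.15 and 3.92 in m867 and at 10.1 and 8.28 in m868. The lowest HRS leg was thus far above the highest PBS leg, and the groups did not overlap. The HRS-MBP mice were at 547 (m860) and 438 (m861), within the range of the HRS legs and above every HRS leg except that of m864. The mean of 272 ± 267 (SD, n = 5) in the HRS leg was 47.8 times the mean of 5.68 ± 4.49 (SD, n = 5) in the contralateral leg, and without the HRS leg of m864 the ratio was 27.5. On the scale log2(normalized count + 0.5) the difference was 5.31 (SE 0.573, limma adjusted p = 6.11e-06). In bulk samples fewer cells of a type and less RNA per cell cannot be told apart, and this holds for every difference given here.

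*Cxcl10* moved in the same way. It was at 58.7 (m862), 34.0 (m863), 164 (m864), 24.9 (m865) and 76.3 (m866) normalized counts in the HRS leg. In the contralateral PBS leg it was at 0.833, 0.511, 2.36, 0.970 and 1.97. In PBS-only mice it was at 0.625 and 1.01 in m867 and at 3.28 and 3.26 in m868. Again no PBS leg reached the lowest HRS leg. The HRS-MBP mice, at 122 and 120, lay close together and between the HRS leg of m864 and those of the other 4 mice. The ratio of means between HRS leg and contralateral leg was 54.0, and the log2 difference was 5.10 (SE 0.472, limma adjusted p = 2.10e-06). *Art3*, the gene that encloses *Cxcl10* on the other strand, moved in the opposite direction in the same comparison (log2 difference -1.69, limma adjusted p = 0.00138).

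*Cxcl11* was measured near the lower limit of these libraries. In the HRS leg it was at 0.853 (m862), 0.497 (m863), 2.48 (m864), 0.623 (m865) and 1.22 (m866) normalized counts. In the contralateral PBS leg it was at 0.381, 0.132, 0.369, 0.206 and 0.0269, the last being worth 1 read. In PBS-only mice it was at 0.246 and 0.140 in m867 and at 0.243 and 0.226 in m868. The HRS and PBS groups did not overlap, although the lowest HRS leg (0.497) was near the highest PBS leg (0.381). This separation holds for the deposited values only, since with *Gm2673* added the right leg of m867 (0.512) lay above the HRS leg of m863 (0.497). The HRS-MBP mice were at 1.45 and 1.33. The ratio of means between HRS leg and contralateral leg was 5.09, and the log2 difference was 1.09 (SE 0.255, limma adjusted p = 0.0024). This is close to the threshold of 1 set for a call, and without the HRS leg of m864 (0.84) or the PBS leg of m866 (0.98) *Cxcl11* was no longer called. A pseudocount of 2 (0.46) or quantile normalization (0.68) ended the call as well, with the direction kept.

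Reads of *Cxcl11* were also shared out with *Gm2673* before deposition. In 5 of 16 libraries neither gene was at a whole number of reads, yet the sum of both was whole in 16 of 16 (within 0.02 reads). In the right leg of m867, 18 reads were split into 8.67 for *Cxcl11* and 9.33 for *Gm2673*, whereas in the HRS legs at least 99.3% of the sum went to *Cxcl11*. In the PBS-only legs the share given to *Cxcl11* was 48.2%, 57.9%, 66.7% and 57.9%. With both genes summed, *Cxcl11* remained called between HRS leg and contralateral leg (log2 difference 1.06, limma adjusted p = 0.00268, alternative chosen after seeing the data). Against PBS-only mice the summed value fell under the threshold, at 0.79 (limma adjusted p = 0.0195). Whether strand was used in counting is not given in the sources used here.

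**Figure D1:**
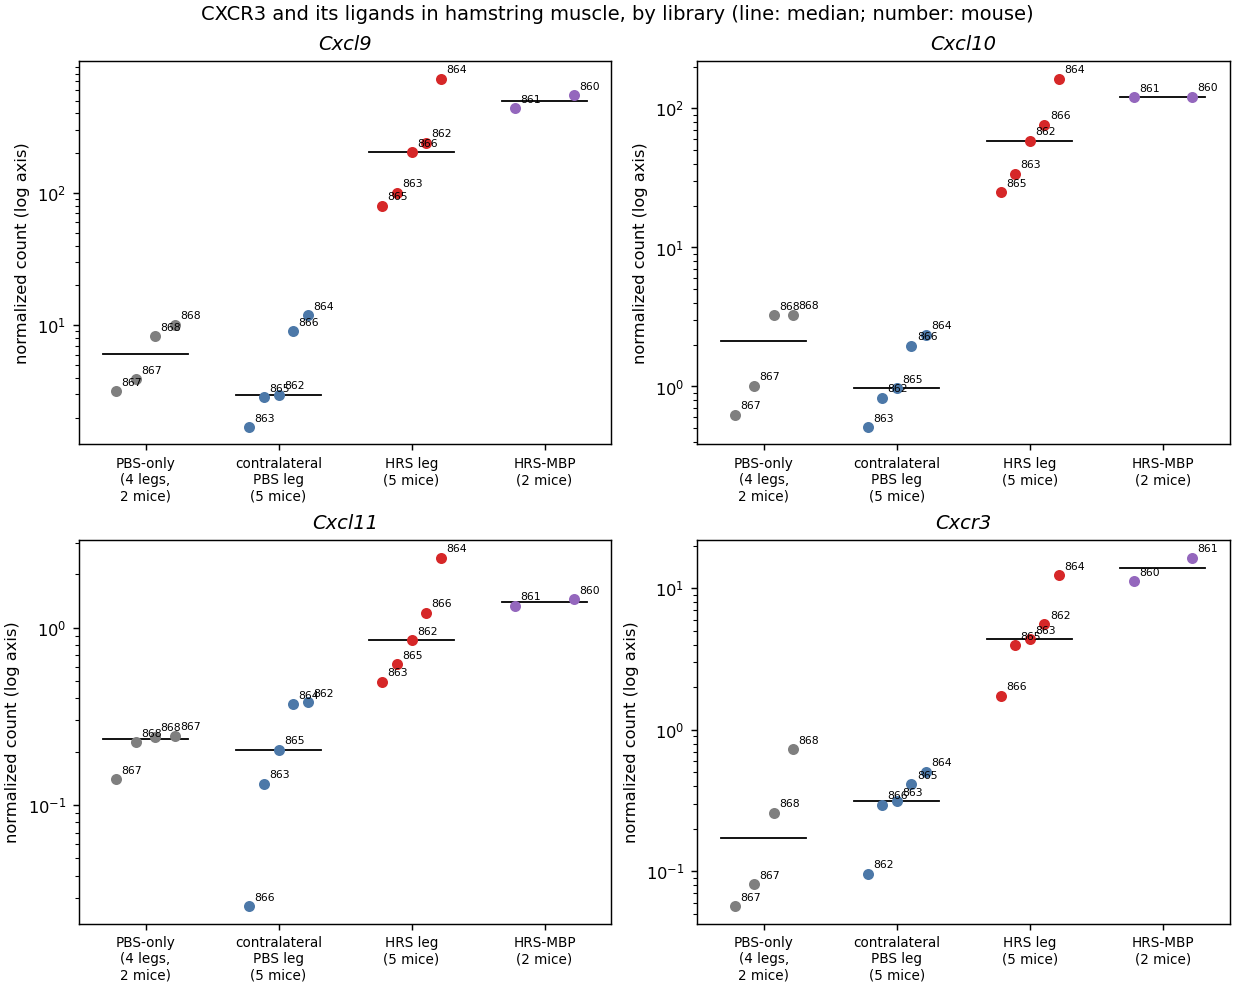
Normalized counts (log axis) of *Cxcl9*, *Cxcl10*, *Cxcl11* and *Cxcr3* in each of the 16 libraries, in 4 groups along the horizontal axis, with each point numbered by its mouse and a line at the group median. For all 4 genes every HRS leg lies above every PBS leg, with the smallest gap for *Cxcl11* (0.497 against 0.381), which is lost against PBS-only mice once *Gm2673* is added.

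*Cxcr3*, the receptor gene, rose with its ligands but ordered the mice differently. In the HRS leg it was at 5.57 (m862), 4.39 (m863), 12.4 (m864), 3.97 (m865) and 1.74 (m866) normalized counts. In the contralateral PBS leg it was at 0.0961, 0.313, 0.508, 0.412 and 0.296. In PBS-only mice it was at 0.0568 and 0.0809 in m867 and at 0.728 and 0.261 in m868. The PBS values rest on 2 to 19 reads a library, so their order carries little information, but the groups did not overlap. The HRS-MBP mice were at 11.2 and 16.5, the latter above every HRS leg. The ratio of means between HRS leg and contralateral leg was 17.3, and the log2 difference was 2.68 (SE 0.359, limma adjusted p = 3.70e-05).

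In the comparison of the HRS leg with the contralateral PBS leg, 4 of 4 members were called higher, where a call requires an adjusted p under 0.05 and a log2 difference over 1. In the same comparison 16.9% of all 16414 genes tested were called higher, and the median log2 difference of all genes was 0.08. *Cxcl11* and *Cxcr3* passed the filter only through the HRS and HRS-MBP legs, so only the calls of *Cxcl9* and *Cxcl10* stand beside this share. Each member differed with an exact two-sided permutation p of 0.00794, the smallest that 5 against 5 legs allow. Of all genes 65.4% had an unadjusted limma p under 0.05 in this comparison. How many of all genes separate HRS from PBS legs fully is not given here, for this or the other comparisons.

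Within each mouse given HRS, both legs could be set side by side. In 5 of 5 mice the HRS leg exceeded the PBS leg for all 4 members, with an exact sign-flip p of 0.062 for each, the smallest that 5 pairs allow. The share of all genes that rose in 5 of 5 mice is not given here. For *Cxcl9* the ratio of HRS leg to PBS leg was 80.5 in m862, 59.2 in m863, 61.8 in m864, 28.1 in m865 and 22.7 in m866. For *Cxcl10* it was 70.5, 66.6, 69.7, 25.6 and 38.8 in the same order. The ratios of both ligands were thus lower in m865 and m866 than in the other 3 mice. For *Cxcl11* the ratio was 2.24 in m862, 3.77 in m863, 6.72 in m864 and 3.03 in m865. In m866 it was 45.1, but this rests on 1 read in the PBS leg, and its counting interval runs from 7.64 to 1828 (exact 95%, counting error only). That read is 33.3% of 3 reads that *Cxcl11* shares with *Gm2673* in this leg, and with both genes summed the ratio in m866 was 15.0 (4.78 to 76.1). For *Cxcr3* the ratio was 14.0 in m863, 24.4 in m864, 9.64 in m865 and 5.89 in m866. In m862 it was 58.0 with 3 reads in the PBS leg (19.7 to 282). The smallest *Cxcr3* ratio was therefore that of m866.

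**Figure D2:**
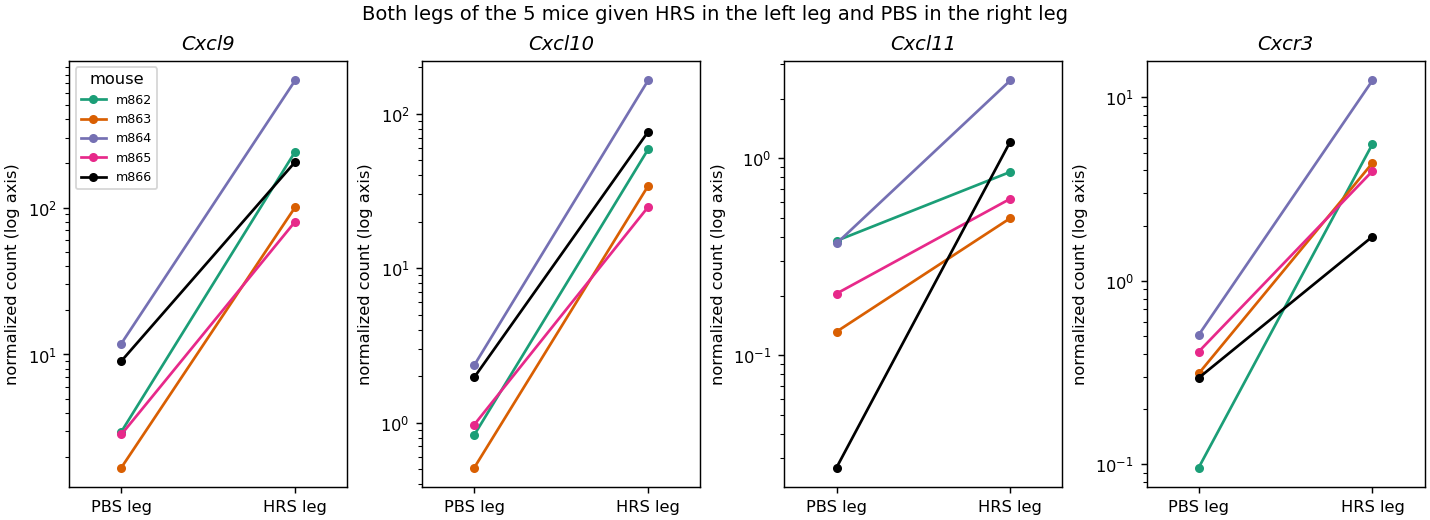
Normalized counts (log axis) of the 4 genes in the PBS leg and the HRS leg of mice m862 to m866, with a line joining both legs of a mouse. Each line rises in all 4 panels, m864 ends highest for each gene, and m866 (black) ends near the middle or above it for the ligands but lowest for *Cxcr3*, at 1.74.

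Among the HRS legs m864 ranked first for all 4 members. The leg of m866 was at rank 3 for *Cxcl9* and rank 2 for *Cxcl10* and *Cxcl11*, but at rank 5 for *Cxcr3*. *Ifng*, which encodes interferon-γ, followed the order of *Cxcl10*, at 5.30 in m864, 1.43 in m866, 1.36 in m862, 0.744 in m863 and 0.349 in m865 normalized counts. The HRS leg of m866 also had the lowest summed level of 9 T cell marker genes among the HRS legs (23.7, the others 41.9 to 145), and 11.1% of its signal came from mitochondrial genes against 3.41% to 6.29% in the other HRS legs and 9.69% to 13.1% in the PBS legs. The part of these values in its low *Cxcr3* was not tested. Without this leg the differences from the contralateral leg were 5.29 for *Cxcl9*, 5.00 for *Cxcl10*, 1.04 for *Cxcl11* and 2.98 for *Cxcr3* on the log2 scale, and all 4 stayed called.

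Against PBS-only mice 4 of 4 members were again called higher in the HRS leg, where 18.9% of all genes were. Here too *Cxcl11* and *Cxcr3* were tested only through the HRS and HRS-MBP legs, so the share stands beside *Cxcl9* and *Cxcl10* alone. The log2 differences were 4.98 (SE 0.608) for *Cxcl9*, 4.71 (SE 0.501) for *Cxcl10*, 1.08 (SE 0.27) for *Cxcl11* and 2.81 (SE 0.381) for *Cxcr3*, with limma adjusted p of 1.62e-05, 5.01e-06, 0.00355 and 3.86e-05. This comparison shares the HRS legs with the one above and is no independent repeat of it. *Cxcl11* lost its call here without the HRS leg of m864 (0.83). With both legs of m868 left out, as the shallowest libraries, the 4 members stayed called, with differences of 5.61, 5.48, 1.12 and 3.20 (an alternative chosen after seeing the data).

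The PBS legs of HRS mice and the legs of PBS-only mice were not distinguished by any member. The log2 difference of contralateral leg minus PBS-only was -0.33 for *Cxcl9* (95% interval -1.62 to 0.97), -0.39 for *Cxcl10* (-1.45 to 0.68), -0.01 for *Cxcl11* (-0.58 to 0.57) and 0.13 for *Cxcr3* (-0.68 to 0.94). By limma 0 of 4 were called, where 0.00609% of all genes were called in either direction. None of the 4 had an unadjusted p under 0.05, against 5.5% of all genes. The intervals of *Cxcl9* and *Cxcl10* still allow differences of more than 1 on the log2 scale. With both legs of m868 left out their differences turned to 0.30 and 0.38, again not called.

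Within the PBS libraries *Cxcl9* and *Cxcl10* differed from mouse to mouse in both groups. The 4 libraries with the highest *Cxcl9* were the PBS legs of m864 (11.9) and m866 (9.02) and both legs of m868 (10.1 and 8.28), and the other 5 were at 1.70 to 3.92. The same 4 libraries were highest for *Cxcl10*, at 1.97 to 3.28 against 0.511 to 1.01 in the other 5. The depth implied by the value of 1 read was 8.6 to 35.6 M reads in these 4 libraries and 29.7 to 72.8 M reads in the other 5, and its part in the difference was not tested. The libraries were split here after their values were seen, so no test was made.

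In the HRS-MBP mice 4 of 4 members were called higher than in PBS-only mice, where 20.7% of all genes were. As before, *Cxcl11* and *Cxcr3* passed the filter only through the HRS and HRS-MBP legs, so the share stands beside *Cxcl9* and *Cxcl10* alone. The log2 differences were 6.30 (SE 0.785) for *Cxcl9*, 5.78 (SE 0.647) for *Cxcl10*, 1.40 (SE 0.349) for *Cxcl11* and 4.25 (SE 0.491) for *Cxcr3*, with limma adjusted p of 1.70e-05, 7.43e-06, 0.00378 and 9.42e-06. The groups did not overlap for any member, but 2 mice against 4 legs allow no exact permutation p under 0.0667. This comparison shares the PBS-only legs with the earlier ones. Against the HRS legs the differences were 1.32 for *Cxcl9* (95% interval -0.30 to 2.93), 1.07 for *Cxcl10* (-0.26 to 2.40), 0.32 for *Cxcl11* (-0.39 to 1.04) and 1.44 for *Cxcr3* (0.43 to 2.45). The interval of *Cxcr3* lay above 0, but by limma 0 of 4 members were called, where 0.463% of all genes were called in either direction. *Cxcr3* alone had an unadjusted limma p under 0.05 (limma adjusted p = 0.194), as did 14.4% of all genes. In an exact permutation test 2 mice against 5 legs gave p = 0.19 for *Cxcr3*, and by limma without the HRS leg of m864 it was called, at 1.77 (limma adjusted p = 0.0147), along with 3.53% of all genes. The protein, its concentration and the leg all differ or are not given between these groups and cannot be told apart.

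**Figure D3:**
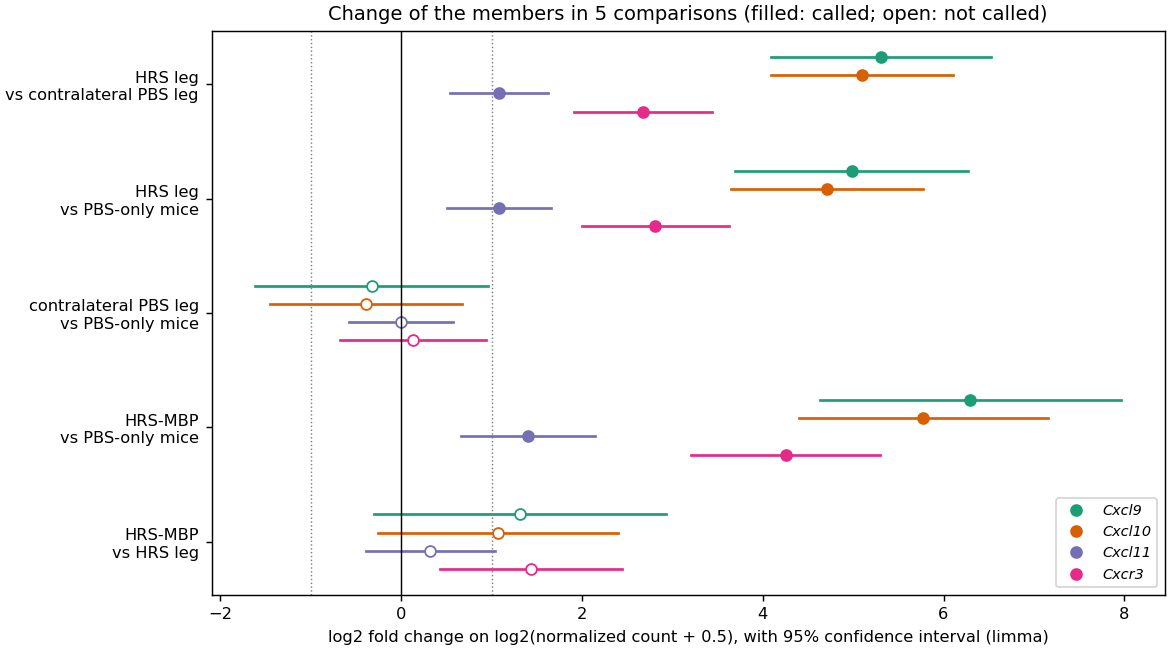
Log2 differences on log2(normalized count + 0.5) with 95% confidence intervals (limma) for the 4 genes in 5 comparisons, filled where called, with dotted lines at a difference of 1 in either direction. The 3 comparisons of HRS or HRS-MBP with PBS are filled throughout, from 1.08 for *Cxcl11* to 6.30 for *Cxcl9*, and the other 2 comparisons hold no call.

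Set against each other per kilobase of transcript, *Cxcl9* and *Cxcl10* were at similar levels, with a median ratio of *Cxcl9* to *Cxcl10* of 1.22 (1.01 to 1.69) in the HRS legs and 1.35 (1.11 to 1.91) in the contralateral legs. Per kilobase *Cxcl10* exceeded *Cxcl11* by a median of 95.5 times in the HRS legs (57.7 to 99.6) and 6.82 times in the contralateral legs (3.16 to 105, the highest being m866 with 1 read of *Cxcl11*). *Cxcl9* exceeded *Cxcr3* by a median of 25.8 times per kilobase in the HRS legs (12.1 to 70.2), with the highest value in m866.

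The balance between ligands within a library was then compared on the log2 scale. The log2 ratio of *Cxcl9* to *Cxcl10* was 1.76 ± 0.32 (SD, n = 5) in the HRS leg and 1.55 ± 0.45 in the contralateral leg, and the difference of 0.21 was within the spread between mice (exact permutation p = 0.405, 0.623 adjusted over 20 ratio tests). Its sign changed with the pseudocount. The ratio of *Cxcl11* to *Cxcl10* differed by -4.01 in the HRS leg (exact permutation p = 0.00794, 0.0397 adjusted over 20), with *Cxcl10* higher by 5.10 and *Cxcl11* by 1.09. With no pseudocount the *Cxcl11* to *Cxcl10* ratio was 0.0145, 0.0146, 0.0151, 0.0251 and 0.0159 in the HRS legs of m862 to m866, and 0.457, 0.258, 0.157, 0.212 and 0.0137 in their PBS legs. On this scale the groups overlapped through the single read of m866, and the difference was -3.07 (exact permutation p = 0.0476, unadjusted). With *Gm2673* added to *Cxcl11*, the PBS leg of m866 was at 0.0411 and the groups did not overlap, with a difference of -3.39 (exact permutation p = 0.00794, unadjusted). The HRS legs other than that of m865 lay between 0.0145 and 0.0159, and the HRS-MBP mice were at 0.0119 and 0.0118.

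The *Cxcr3* level was also set against 9 T cell marker genes in the same library. Their summed level was 23.7 to 145 in the HRS legs, 4.20 to 5.63 in the contralateral legs, 3.17 to 4.90 in PBS-only mice and 116 to 158 in HRS-MBP mice, so that the markers moved with *Cxcr3*. The log2 ratio of *Cxcr3* to the mean log2 level of these markers was 0.01 ± 0.26 (SD, n = 5) in the HRS leg and -0.08 ± 0.23 in the contralateral leg. The difference of 0.10 was within the spread (exact permutation p = 0.54, 0.675 adjusted over 20), which does not show that the ratio was the same. In the PBS legs *Cxcr3* and 6 of the 9 markers had means under 0.5. The added 0.5 outweighs such values, so this test cannot decide whether the ratio changed. As a plain ratio to the summed markers, *Cxcr3* was at 0.0738 to 0.105 in the HRS legs and 0.0203 to 0.098 in the contralateral legs (log2 difference 0.56, exact permutation p = 0.151, unadjusted). Against *Cd3e* alone, a T cell receptor chain gene, it was at 0.737 to 1.29 in the HRS legs and 0.176 to 0.737 in the contralateral legs, higher by 1.254 on the log2 scale (exact permutation p = 0.00794, unadjusted, chosen after the values were seen). These measures differ in both the reference and the pseudocount, and the part of each in the outcome was not tested. The *Cxcr3* values of the PBS legs rest on few reads.

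**Figure D4:**
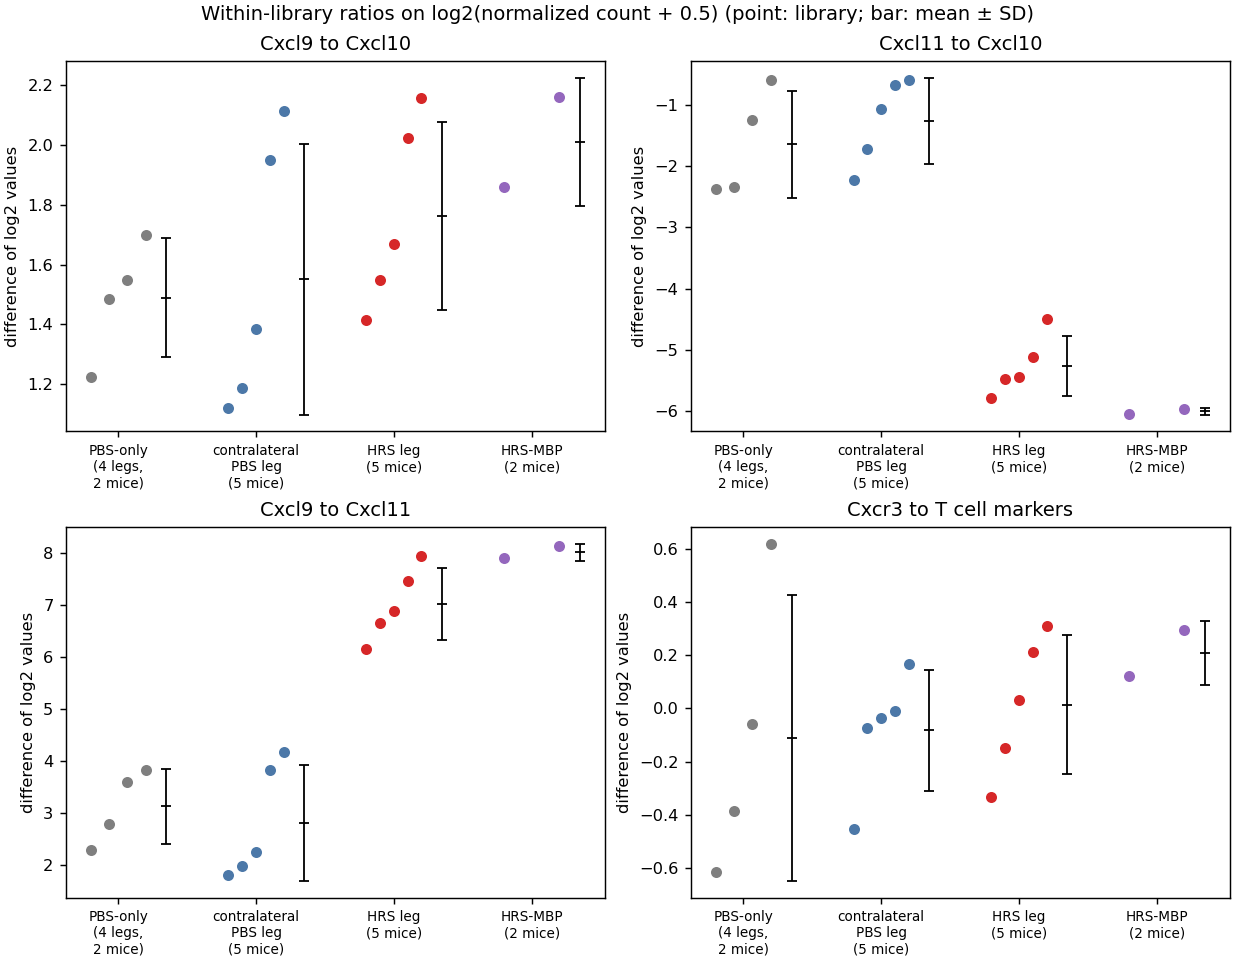
Within-library differences of log2(normalized count + 0.5) for *Cxcl9* to *Cxcl10*, *Cxcl11* to *Cxcl10*, *Cxcl9* to *Cxcl11* and *Cxcr3* to the mean of 9 T cell markers, with a point for each library and bars for mean ± SD of each group. The ratios that involve *Cxcl11* separate HRS from contralateral PBS legs on this scale (by -4.01 and 4.22), while *Cxcl9* to *Cxcl10* and *Cxcr3* to T cell markers overlap between HRS legs and PBS legs. With no pseudocount both *Cxcl11* ratios overlap through the PBS leg of m866, which holds 1 read of *Cxcl11*. There *Cxcl9* to *Cxcl11* was 335, against 129 to 296 in the HRS legs.

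Markers of leukocytes moved with the members between HRS leg and contralateral leg, where 16.9% of all genes were called higher, while no marker of endothelium or muscle fibres was called higher. All 8 macrophage and monocyte markers were called higher (*Ly6c2* 4.14 to *Mertk* 2.24), as were 6 of 7 dendritic cell markers (*Itgax* 4.13) and 3 of 6 fibroblast markers (5 of 6 without the HRS leg of m866). The dendritic cell count includes 1 marker that passed the filter only through the HRS and HRS-MBP legs. All 6 NK cell markers, all 5 B cell markers, 5 of 6 neutrophil markers and 6 of 9 T cell markers had a mean under 0.5 in the PBS legs and passed the filter only through the HRS and HRS-MBP legs, so their calls are not counted here. Of the other 3 T cell markers, *Cd4* (4.0) and *Cd3e* (2.11) were called higher and *Cd247* (0.64) was not. The summed level of the 6 NK cell markers was 12.0 to 37.6 in the HRS legs and 0.324 to 1.99 in the contralateral legs. The 5 B cell markers summed to 4.05 to 24.01 against 0.676 to 1.40, and the 6 neutrophil markers to 1.53 to 59.8 against 0.256 to 1.66. The neutrophil sums overlapped between these groups, and the neutrophil marker *Ly6g* was at 0 in all PBS legs. The NK, B cell and neutrophil sums are given as levels only. None of 6 endothelial markers was called (*Pecam1* 0.35 to *Tek* -0.33). Of 7 muscle fibre markers *Ckm* (-1.18) and *Tnnt3* (-1.10) were called lower, where 6.27% of all genes were, and both lost their calls with a replicate block for the mouse. As single libraries were left out, the number called lower ran from 0, as without the HRS leg of m863, m864 or m865 or the PBS leg of m862, m863, m864 or m865, to 4 without the HRS leg of m866. All 7 of these markers of the labelled tissue were detected in each group. The part of these cell types in the levels of the members was not tested.

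The genes that lead from interferon-γ to the ligands were taken as a list of 20, of which 19 passed the filter. Between HRS leg and contralateral leg 12 were called higher, among them *Ifng* and *Tnf*, which passed the filter only through the HRS and HRS-MBP legs, 1 lower and 6 neither, with a median log2 difference of 1.56 against 0.08 over all genes. Over all genes 16.9% were called higher and 6.27% lower. *Ifng* itself was listed at 0 in all 5 contralateral legs, so that its mean of 1.84 in the HRS leg was at least 20.3-fold higher than a floor of 3 reads per library (at least 10.7-fold without the HRS leg of m864), and the list's median stayed at 1.56 with *Ifng* at this bound. *Ifng* was at a fractional number of reads in every HRS and HRS-MBP library (19.6 to 297 reads), and at 0 to 2 whole reads in the PBS legs. The bound rests on these values, and whether reads were shared with another gene was not tested. The signal transducer *Stat2* (1.87) rose, as did the transcription factors *Irf8* (3.32), *Irf1* (2.91), *Irf9* (1.57) and *Tbx21* (1.55), the last of which drives *Ifng* and *Cxcr3* in T helper type 1 cells. *Tnf* (3.46), which acts with interferon-γ on these chemokine genes, and *Il18* (1.56), an inducer of *Ifng*, rose as well. The feedback inhibitors *Socs1* (2.76) and *Socs3* (1.74) were also called higher. Of the interferon-γ receptor chains *Ifngr1* was called higher (1.02), a call lost in 8 of 25 alternatives, and *Ifngr2* was not called (-0.48). The kinases *Jak1* (-0.01) and *Jak2* (-0.08), the repressor *Irf2* (0.44) and the NF-κB subunits *Rela* (0.82) and *Nfkb1* (0.78) were not called. *Il12a*, a subunit of interleukin-12, was called lower (-1.03), a call lost in 7 of 25 alternatives.

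Of 11 genes that signal from CXCR3, bind its ligands or otherwise act on the axis, 4 were called higher between HRS leg and contralateral leg, with a median of 0.84, against 16.9% and a median of 0.08 over all genes. These were *Ccl21a* (2.18), a chemokine that binds mouse CXCR3 and whose near-identical gene copies make its value uncertain, *Arrb2* (2.14), the arrestin that takes up the activated receptor, *Pf4* (1.58), a platelet chemokine, and *Gnai2* (1.39), the G protein subunit through which chemokine receptors signal. *Dpp4* (0.48), the protease that truncates the ligands, and the scavenging receptors *Ackr1* (0.84), *Ackr2* (0.29) and *Ackr3* (0.04) were not called. Of 16 other CXC chemokine and receptor genes 11 passed the filter and 8 were called higher, but 6 of the 11 passed only through the HRS and HRS-MBP legs, among them *Cxcr6*, *Cxcl5*, *Cxcl2* and *Cxcl1*. *Cxcl16* (3.57) and its receptor *Cxcr6* (2.60) were among them, next to the neutrophil-attracting *Cxcl5* (3.20), *Cxcl2* (2.45) and *Cxcl1* (2.10), while *Cxcl12* (0.72) and *Cxcl14* (-0.12) were not called. The differences of *Cxcl9* and *Cxcl10* (5.31 and 5.10) exceeded those of all 11.

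**Figure D5:**
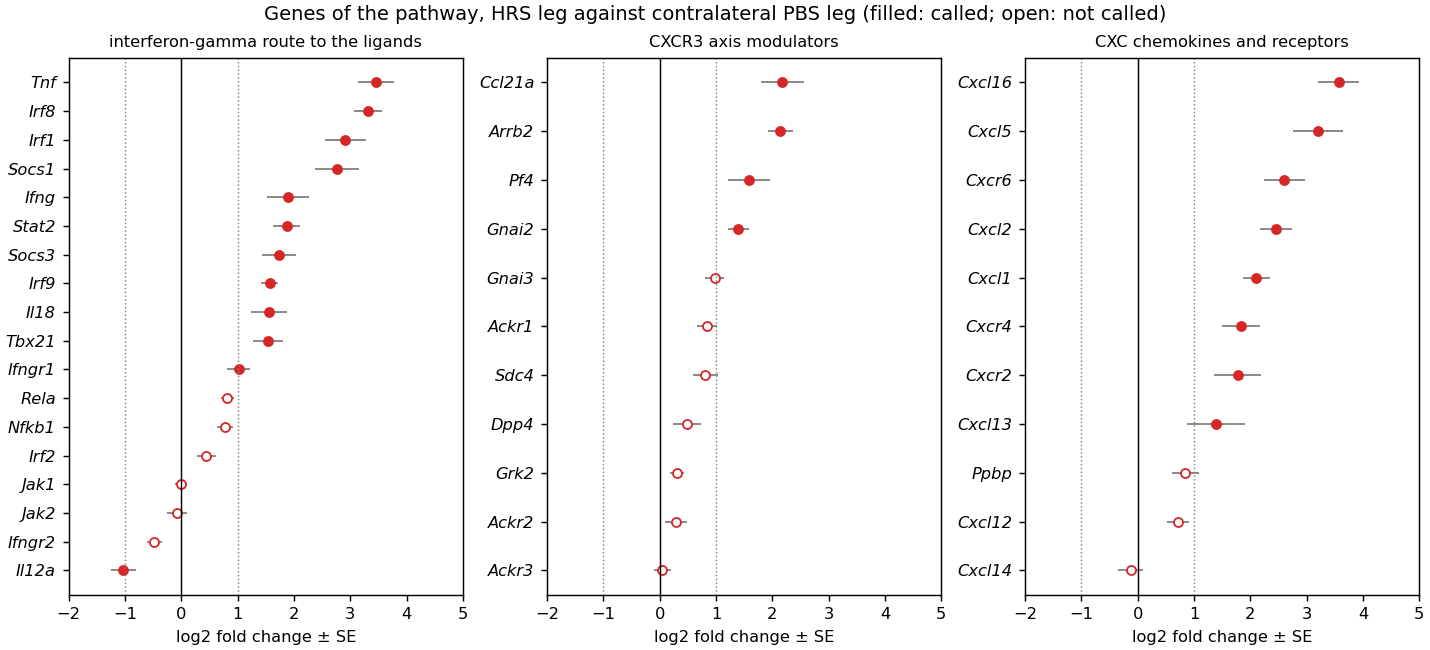
Log2 differences ± SE (limma) between HRS leg and contralateral PBS leg for genes of the interferon-γ route, 11 modulators of the CXCR3 axis and 11 other CXC chemokines and receptors, filled where called. *Tnf* (3.46), *Ccl21a* (2.18) and *Cxcl16* (3.57) lead the 3 panels.

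Finally, the genes whose levels moved most like each member from library to library were named, by Pearson's r over 16 libraries with the group means removed, as a description across 16413 genes. These libraries share mice and scaling, so the r values are given without p. *Cxcl9* was most like *Cxcl10* (0.953), *Serpina3g* (0.93) and *Psmb10* (0.927). For *Cxcl10* the r was 0.953 with *Cxcl9* and 0.947 with *Parp14*. *Cxcl11*, at its low counts, was most like *Hat1* (0.887), *Pdcd1* (0.839) and *Scn2b* (0.827), and its r was 0.614 with *Cxcl9* and 0.634 with *Cxcl10*. *Cxcr3* was most like *Fgr* (0.951), *Slamf7* (0.948) and *Adgre4* (0.947), and its r with the ligands was lower, at 0.572 with *Cxcl9*, 0.536 with *Cxcl10* and 0.391 with *Cxcl11*.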

How the data were processed

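Poly(A)-selected directional libraries were sequenced on Illumina instruments. The authors deposited a gene table of normalized read counts, a signal that is not raw, whose normalization method is not given in the sources used here. The submitters' processing notes name STAR 2.7.8a, limma and the build GRCm39 (mm39), but the table's coordinates follow GENCODE M21 on GRCm38. Low values were whole multiples of 1 read in 75.4% to 77.7% of cases (within 0.02), so reads were not taken as recovered. The value of 1 read implied depths of 8.6 to 73.9 M reads, and counts given as reads use it. The members and gene lists were chosen with earlier results of these data known.

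Values were transformed as log2(value + 0.5), which understates changes of low genes. Genes with a mean of at least 0.5 (16414 of 26382) were fitted over 4 groups with limma 3.58.1 (R 4.3.3, trended empirical Bayes), with Benjamini-Hochberg adjustment over all genes. A gene was called at an adjusted p under 0.05 and an absolute log2 difference over 1. The fit was tested on simulated data. Single values and ratios were tested by exact two-sided permutation of libraries and by sign flips over mice (Python 3.11.15, scipy 1.17.1). The legs are paired by animal in the labels, and the deviations of both legs from their group means correlated across genes at 0.12, 0.16, 0.10, -0.03 and -0.37 in m862 to m866. In PBS-only mice each leg was a library, so p-values there treat both legs of a mouse as separate. Which sequencer ran which library is not given in the sources used here. Genes named were the members, the listed genes, the highest and lowest marker of a list and the 3 genes most like each member, except 1 gene that is not reported here. Alternatives were another pseudocount, filter, scaling, variance model, block by mouse and leaving out each library.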

Additional observations from a re-analysis of the deposited data

Results flagged for a closer look

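In 3 groups of values 1 library stood apart from the others. *Cxcl9* in the HRS leg of m864 was at 734 normalized counts, with the next highest HRS leg at 240 and the lowest at 80.2, and the gap to the next leg took up 0.756 of the range of the 5 legs. *Ifng* in the same leg was at 5.30, with the next at 1.43, a gap of 0.781 of the range. *Ifng* in the right leg of m868, among the PBS-only legs, was at 0.243, which is worth 2 reads, with the next leg at 0.0284 (1 read) and a gap of 0.883 of the range. Of the 29 groups of values examined 3 stood apart in this way, and the rule by itself marks about 1 in 20 groups of normally distributed values; the form of these values was not tested.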

How the results depend on the processing

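*Cxcl9*, *Cxcl10* and *Cxcr3* kept their calls in all alternatives run for the 3 comparisons of HRS or HRS-MBP with PBS, with log2 differences between HRS leg and contralateral leg of 4.83 to 5.76, 4.20 to 5.52 and 1.57 to 3.49. *Cxcl11* lost its call in 4 of 24 alternatives against the contralateral leg, in 4 of 23 against PBS-only mice and in 2 of 20 when HRS-MBP was compared with PBS-only, and a filter at a mean of 2 left it untested. The number of members called between HRS-MBP and HRS leg ran from 0 to 1 as libraries were left out. With a replicate block for the mouse, all 4 members stayed called (5.31, 5.10, 1.09 and 2.68, limma adjusted p from 0.000444 to 0.0208). Paired by mouse, the differences in the log2 ratios of *Cxcl11* to *Cxcl10* (-4.01) and *Cxcl9* to *Cxcl11* (4.22) could not go below an exact p of 0.062. The sign of the *Cxcl9* to *Cxcl10* difference turned at the smaller pseudocount (-0.042) and with none (-0.16). That of *Cxcr3* to T cell markers turned at the smaller pseudocount (-0.0082) and ran from -0.0015 to 0.18 as mice were left out, and with the plain ratio to *Cd3e* it was 1.254 (exact permutation p = 0.00794). The cause was not tested. Scaling to a common total, voom weights and quantile normalization moved the median of all genes between HRS leg and contralateral leg to 0.46, 0.48 and -0.16, and the share of calls that were higher from 73% to 93%, 94.5% and 56.2%. Of 100 listed genes 33 changed their call in at least 1 alternative. In PBS libraries *Cxcl11* and *Cxcr3* rest on 1 to 19 reads, and depth limits any order among them.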
